A study of Rattus norvegicus with 28 samples.

Results

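Kidney arrays that were rich in urothelial transcripts were compared with arrays that were poor in them. The arrays were chosen by measured values: each was scored by the mean log2 value of uroplakin 1a (Upk1a), uroplakin 3a (Upk3a) and keratin 15 (Krt15). Control replicate 10 and GMO replicate 3 were left out, and the other 26 of 28 arrays were ranked. The 7 highest arrays are called rich, the 7 lowest poor, and the remaining 12 arrays between.

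Each array measured total RNA from a transverse slice of frozen kidney of a different female Sprague-Dawley rat, on a whole-transcript Affymetrix rat gene array. All animals ate a diet with 33% maize until they were killed in a long feeding trial. The control group (n = 10) received the isogenic maize line, the GMO group (n = 9) the Roundup-tolerant NK603 maize grown without the herbicide, and the GMO+R group (n = 9) NK603 maize sprayed with Roundup in the field. Age at death ran from 393 to 737 days.

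The urothelium is the layered epithelium that lines the renal pelvis, ureter and bladder. Its superficial umbrella cells carry rigid plaques built of uroplakins, in which Upk1a pairs with Upk2 and Upk1b with Upk3a, while its basal cells hold keratins such as Krt15 and the transcription factor Tp63. In the kidney it lies at the pelvis, next to smooth muscle, loose connective tissue and the fat of the renal sinus, whereas the cortex holds glomeruli and proximal tubules. In a bulk sample, fewer cells of a type and less RNA per cell cannot be told apart.

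The score ran from 6.50 to 7.10 in the 7 rich arrays (median 6.82), from 5.73 to 6.22 in the 12 arrays between and from 5.38 to 5.66 in the 7 poor arrays (median 5.46). All scores and levels are log2 values. At the upper border, GMO+R replicate 5 stood just inside at 6.50 and GMO+R replicate 4 just outside at 6.22. The lower border was narrow, with GMO+R replicate 6 inside at 5.66 and GMO replicate 2 outside at 5.73. Of the 2 borders, the plot of score by array shows a clear step only at the upper one. A step of similar size lay within the rich set, between control replicate 5 at 6.77 and GMO+R replicate 5 at 6.50.

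**Figure D1:**
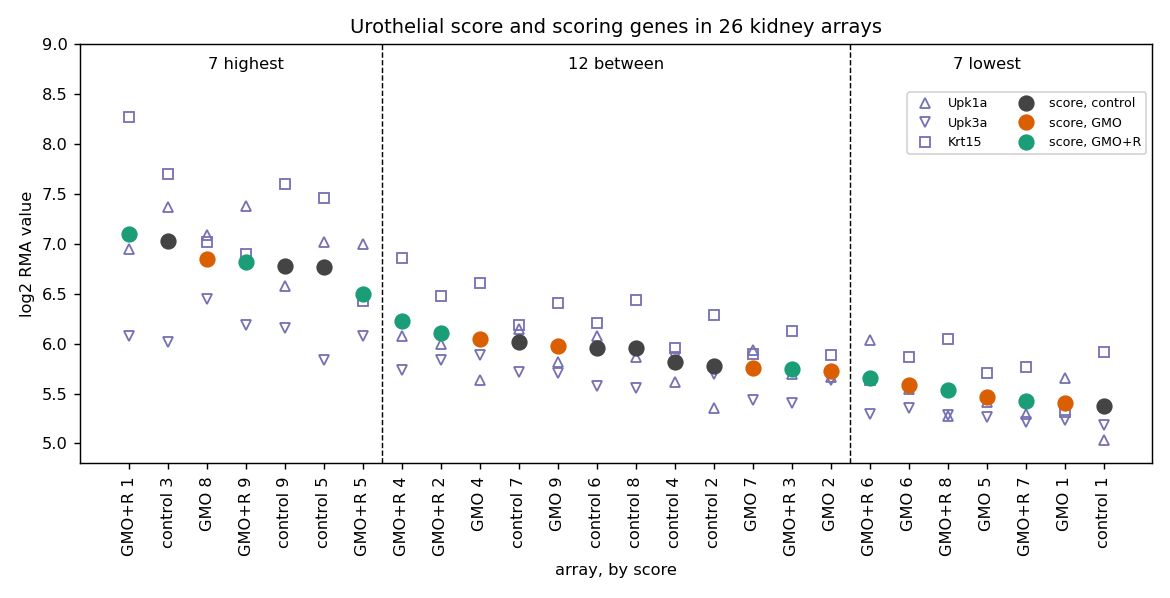
Score (filled circles, coloured by diet) and the log2 RMA values of its 3 genes (open symbols) in the 26 ranked arrays, with dashed lines at the borders of the sets. The score stepped by 0.273 between ranks 7 and 8 and by 0.0719 between ranks 19 and 20.

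The 3 scoring genes are given as a description only, because they chose the arrays. Upk1a lay between 6.57 and 7.37 in the rich arrays (median 7.01) and between 5.03 and 6.04 in the poor arrays (median 5.42), a 3.0-fold difference of the means. Upk3a lay between 5.83 and 6.45 (median 6.08) against 5.18 to 5.35 (median 5.27), a 1.80-fold difference. Krt15 lay between 6.42 and 8.27 (median 7.45) against 5.32 to 6.05 (median 5.76), a 3.0-fold difference. None of the 3 genes overlapped between the sets. When the arrays were ranked by a single gene, 7, 6 and 6 of the 7 rich arrays were also the highest for Upk1a, Upk3a and Krt15. Of the 7 poor arrays, 5, 7 and 5 were also the lowest for these genes. The score is the mean of the same genes, so part of this agreement is built in.

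The diets were spread unevenly over the sets. The rich arrays held 3 control, 1 GMO and 3 GMO+R animals, the arrays between 5, 4 and 3, and the poor arrays 1, 3 and 3. By diet the score ran from 5.38 to 7.03 in control (n = 9, median 5.95), from 5.40 to 6.85 in GMO (n = 8, median 5.74) and from 5.42 to 7.10 in GMO+R (n = 9, median 6.11), and the ranges overlapped almost fully. Rats of the rich arrays died at 672 ± 71.9 days (SD, n = 7) and those of the poor arrays at 602 ± 128 days (SD, n = 7). The difference of 70 days did not pass the two-sided exact permutation test (p = 0.227 over 3432 divisions).

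Some arrays stood apart from the rest. Over all clusters, the correlation of an array with the rest of the series had a median of 0.957 for GMO+R replicate 1, the array with the highest score, and of 0.938 for GMO replicate 2 in the set between, whereas the other ranked arrays had medians from 0.969 to 0.981. GMO replicate 3, which was left out, had a median correlation of 0.881 and a score of 5.21. Control replicate 10, also left out, had a score of 6.64 and a mean level of 10.0 over 9 liver genes, against at most 6.82 in any ranked array. Results that leaving out GMO+R replicate 1 moved most are given with and without it. Defining markers of the kidney were high in both sets, with Slc34a1 of the proximal tubule at 11.8 to 12.3, Umod of the thick limb at 12.4 to 12.9 and Aqp2 of the collecting duct at 10.2 to 11.1 over the 14 arrays.

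With the scoring genes left out, 36682 transcript clusters were tested with limma, and the Benjamini-Hochberg adjustment ran over all of them. A cluster was called at an adjusted p under 0.05. The p values measure how each cluster varied with the 3 scoring genes over animals, not the effect of a condition. In all, 5 clusters were called higher in the rich arrays, 0.0136% of those tested, and 0 were called lower, or 0%. At an unadjusted p under 0.05, 948 clusters were higher and 745 lower. Of all clusters tested 51.0% had the higher mean in the rich arrays, with a median difference of 0.00386. An equal-variance test without limma's moderation called 2 clusters, with 1706 at an unadjusted p under 0.05.

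The 4 called clusters with a single gene symbol were Upk1b, Upk2, Sprr1a and Anxa8. The other called cluster, 17747907, had no gene symbol in the platform annotation used here. Promoter windows of RefSeq's GRCr8 assembly, reaching 250 bases before and 50 bases after the gene start, were found for 13 of 25 genes looked up, namely the scoring genes, the measured members of the urothelium list and Anxa8. The windows of Upk1b (chr11:75459131-75459430, plus strand), Sprr1a (chr2:180752576-180752875, minus strand) and Anxa8 (chr16:9403137-9403436, plus strand) are shown because these genes followed the score most firmly. They are written 5′ to 3′, with matches to the motifs searched in capitals.
Upk1b: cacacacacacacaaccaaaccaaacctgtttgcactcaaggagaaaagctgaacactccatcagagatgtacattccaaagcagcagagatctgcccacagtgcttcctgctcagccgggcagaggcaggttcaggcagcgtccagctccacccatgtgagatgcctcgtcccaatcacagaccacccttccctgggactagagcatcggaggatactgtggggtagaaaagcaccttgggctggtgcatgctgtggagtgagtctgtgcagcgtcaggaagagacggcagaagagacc
Sprr1a: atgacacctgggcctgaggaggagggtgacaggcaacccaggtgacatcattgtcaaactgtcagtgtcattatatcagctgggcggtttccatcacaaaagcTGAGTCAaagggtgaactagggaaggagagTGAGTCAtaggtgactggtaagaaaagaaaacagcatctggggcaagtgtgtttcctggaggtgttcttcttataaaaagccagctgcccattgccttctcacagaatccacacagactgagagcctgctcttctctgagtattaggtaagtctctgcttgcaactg
Anxa8: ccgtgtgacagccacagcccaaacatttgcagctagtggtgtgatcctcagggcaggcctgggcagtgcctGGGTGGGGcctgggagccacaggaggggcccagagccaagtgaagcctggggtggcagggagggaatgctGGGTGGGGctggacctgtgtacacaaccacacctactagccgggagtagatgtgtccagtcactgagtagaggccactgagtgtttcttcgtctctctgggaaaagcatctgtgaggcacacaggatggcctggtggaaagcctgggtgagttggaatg

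Motifs of factors known in layered epithelia were searched on both strands, and none of the matches printed overlaps a match to another motif. The AP-1 letters TGANTCA occurred 2 times in the Sprr1a window and in no other. That is 1 of the 13 windows (7.69%), near the 7.33% of all 33469 promoter windows of the same length. The Krüppel-like factor letters GGGNGNGG occurred 2 times in the Anxa8 window and in 8 of the 13 windows (61.5%), against 46.3% of all windows. The Upk1b window held no match. The grainyhead letters AACCGGTT, the GATA letters AGATAA and the forkhead letters TGTTTAC were in 0 of the 13 windows, against 0.173%, 11.6% and 3.78% of all windows. A match is a description of these letters and no sign that a factor binds there.

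Upk1b, the tetraspanin partner of Upk3a, ran from 6.85 to 7.90 in the rich arrays (median 7.21) and from 5.38 to 5.83 in the poor arrays (median 5.63). The sets were more than 1 log2 unit apart. Its difference of 1.67 (SE 0.145), or 3.19-fold, had the smallest adjusted p (limma, adjusted p = 0.000232). Upk2, the partner of Upk1a, ran from 6.35 to 7.57 (median 6.91) against 5.32 to 6.27 (median 5.75), with no overlap. It was 2.35-fold higher, by 1.23 (SE 0.181, limma adjusted p = 0.0391). With Upk1a and Upk3a among the scoring genes, the 4 uroplakins of the plaque did not overlap between the sets, of which Upk1a and Upk3a by choice of the arrays.

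Sprr1a, a small proline-rich protein that is cross-linked into the envelope of squamous cells, had the largest difference of the called clusters. It ran from 7.68 to 9.49 in the rich arrays (median 8.52) and from 5.11 to 6.90 in the poor arrays (median 5.72). The highest poor array was GMO+R replicate 6, still below every rich array. The difference was 2.61 (SE 0.281), or 6.09-fold (limma, adjusted p = 0.00217). Anxa8, an annexin that binds phospholipids in the presence of calcium, ran from 6.53 to 7.13 (median 6.73) against 5.07 to 5.91 (median 5.79), without overlap. It was 2.20-fold higher, by 1.14 (SE 0.141, limma adjusted p = 0.00738). The cluster 17747907 ran from 6.38 to 7.71 against 5.19 to 6.05, a difference of 1.49 (SE 0.187, limma adjusted p = 0.00738).

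**Figure D2:**
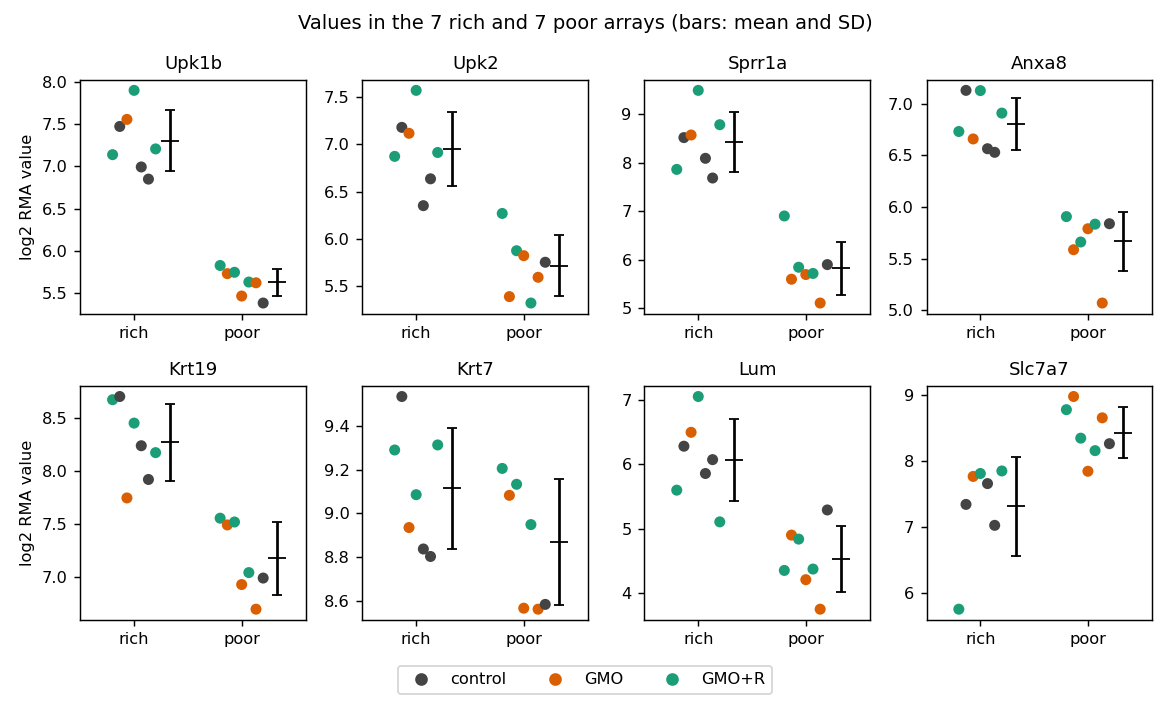
Log2 RMA values of 8 genes in the 7 rich and the 7 poor arrays, each point an animal coloured by diet, with mean and SD as bars. Upk1b, Upk2, Sprr1a, Anxa8 and Krt19 did not overlap between the sets, whereas Krt7, Lum and Slc7a7 did.

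Leaving out each of the 14 arrays in turn kept Upk1b, Sprr1a, Anxa8 and cluster 17747907 called in all 14 fits. The call of Upk2 was kept in 2 of these fits, without control replicate 9 and without GMO+R replicate 6, and was lost in the other 12. Without GMO+R replicate 1 its difference was 1.25 (limma, adjusted p = 0.0897). With diet as a covariate, 2 clusters were called, Upk1b and Sprr1a. Over the 29 settings run, Upk1b had differences from 1.50 to 1.76 and Sprr1a from 2.27 to 2.85, with the call kept in each, while Anxa8 was called in 27, cluster 17747907 in 25 and Upk2 in 8.

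The urothelium list of keratins, uroplakins, surface proteins and transcription factors held 25 genes besides the scoring genes, of which 21 were measured as a single-symbol cluster. Of these, 19 had the higher mean in the rich arrays and 2 the lower, with a median difference of 0.38 against 0.00386 over all clusters. Upk1b, Upk2 and Sprr1a were called, and 12 members were higher at an unadjusted p under 0.05 against 0 lower. The mean level of the list ran from 6.38 to 6.83 in the rich arrays, from 5.97 to 6.38 between and from 5.83 to 6.19 in the poor arrays. The list was chosen with earlier results of these arrays known.

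A further measure was whether all 7 rich arrays lay above all 7 poor ones. This held for 20 of all clusters (0.0545%), and the reverse for 9 (0.0245%). In the urothelium list it held for 7 members, the 3 called genes and Krt19, Grhl3, Klf5 and Fxyd3. Krt19, a keratin of simple and transitional epithelia, ran from 7.75 to 8.70 in the rich arrays (median 8.24) and from 6.70 to 7.56 in the poor arrays (median 7.04). Its difference of 1.10 (SE 0.177) missed the threshold (limma, adjusted p = 0.0857), and it was called when GMO replicate 8 was left out. Grhl3, a grainyhead-like factor that mouse umbrella cells need to mature, ran from 6.13 to 7.07 against 5.49 to 6.10, a difference of 0.83 (limma, adjusted p = 0.153). Klf5, a Krüppel-like factor required in the mouse bladder epithelium, ran from 8.04 to 8.56 against 7.27 to 7.84, a difference of 0.65 (limma, adjusted p = 0.153). Fxyd3, a small regulator of the sodium pump, differed by 0.73 (limma, adjusted p = 0.427).

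The other members overlapped between the sets. Psca, a surface antigen of umbrella cells, differed by 1.02 (limma, adjusted p = 0.998), with 6 of 7 rich arrays above the mean of the poor ones. S100a14, Ehf and Krt14 differed by 0.38, 0.37 and 0.28. Tp63 and Foxa1, transcription factors of basal and of intermediate cells, differed by 0.62 and 0.74 (limma, adjusted p = 0.454 and 0.759). Krt7 ran from 8.80 to 9.54 against 8.56 to 9.21, a difference of 0.25 (limma, adjusted p = 0.998). Gata3 and Elf3, which collecting duct cells also express, differed by 0.18 and 0.11. Krt20, the keratin of mature umbrella cells, was near the lower end of the scale in both sets, at 3.38 to 3.84 against 3.42 to 3.92, and Ly6d at 3.89 to 4.56 against 3.99 to 4.75. Upk3b, Krt13 and Krt17 differed by 0.17, 0.053 and 0.037. The heat map of the list shows a step at the upper border for the upper rows and none for the lower rows.

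**Figure D3:**
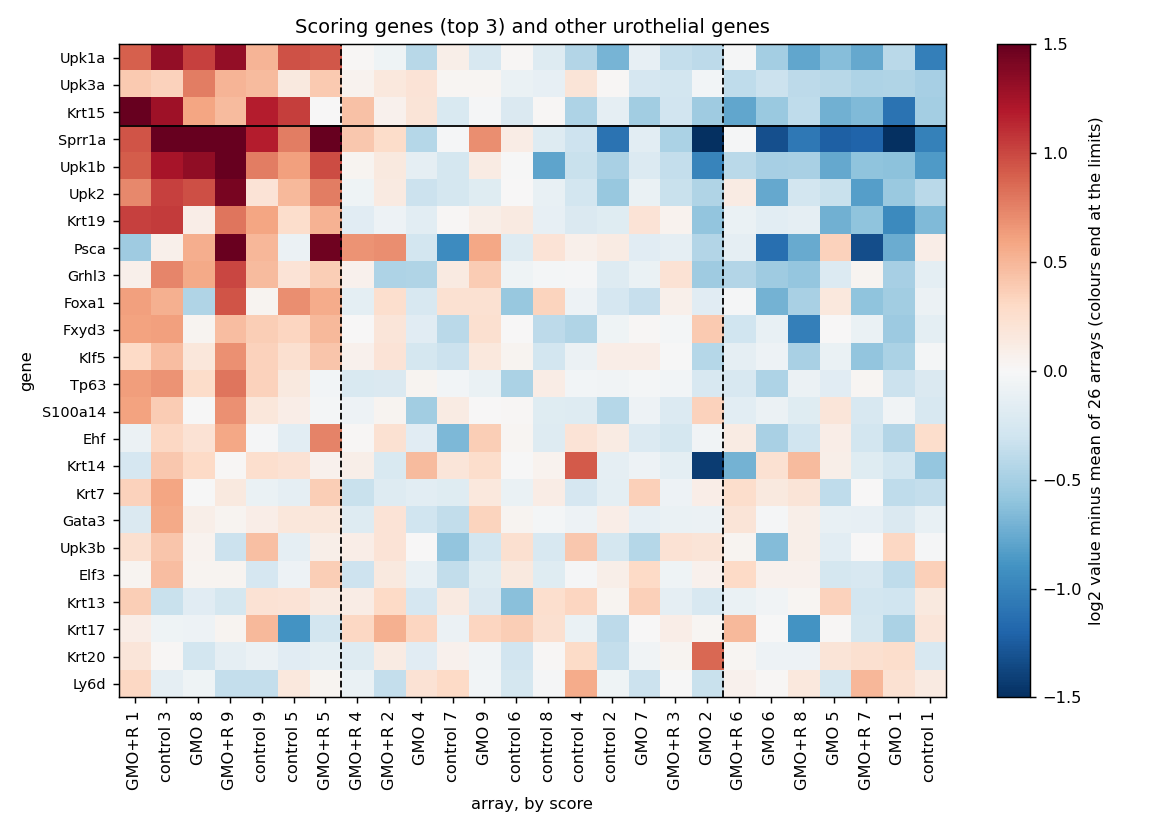
Log2 values of the 3 scoring genes and the 21 other urothelial genes, as the difference from each gene's mean over the 26 ranked arrays (columns, by score, dashed lines at the borders of the sets). Sprr1a, Upk1b, Upk2, Krt19, Grhl3, Fxyd3 and Klf5, whose sets did not overlap, are red in the rich arrays, and the rows from Krt7 to Ly6d show no such step. Colours end at the limits of the scale.

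Outside the list, the genes that did not overlap included Uchl1, a ubiquitin hydrolase best known from neurons, which ran from 6.60 to 7.31 against 5.78 to 6.47, a difference of 0.81 (limma, adjusted p = 0.0857). These genes were named after their values were seen. Glrx, a glutaredoxin, differed by 0.93, Pof1b, an actin-binding protein of epithelia, by 0.90, and Syt8, a synaptotagmin, by 0.55 (limma, adjusted p = 0.251, 0.541 and 0.470). Lower in all rich arrays were Stra6, the retinol-uptake receptor, by -1.03, Slc22a23 by -0.51 and Lgmn, a lysosomal endopeptidase abundant in proximal tubule, by -0.45 (limma, adjusted p = 0.747, 0.629 and 0.611). Stra6 ran from 5.69 to 7.80 against 7.85 to 8.68, and its lowest value was that of GMO+R replicate 1. Without that array its difference was -0.76 (limma, adjusted p = 0.431).

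A slope on the score in all 26 arrays used the arrays between as well. It called 18 clusters with a positive slope, 0.0491% of those tested, and 3 with a negative slope, 0.00818%. Of these 21 clusters 19 had a single symbol, and all 5 clusters called between the sets were among them. Slopes are log2 units per log2 unit of the score. Upk1b had a slope of 1.27 (SE 0.109, limma adjusted p = 1.88e-07), Sprr1a of 1.90 (SE 0.201, limma adjusted p = 5.66e-06) and Upk2 of 0.94 (SE 0.104, limma adjusted p = 1.15e-05). Krt19 (0.81), Uchl1 (0.63), Tp63 (0.47), Klf5 (0.45) and Grhl3 (0.56) were also called, so that 7 of the 21 urothelial genes passed the slope test. Of these, Upk1b, Sprr1a, Upk2 and Krt19 were called in all 9 settings of the slope fit, Klf5 and Tp63 in 7 and Grhl3 in 5. Grhl3 and Klf5 lost the call with diet as a covariate, Grhl3, Klf5 and Tp63 with the replicate number as a block, and Tp63 without GMO+R replicate 1 and GMO replicate 2.

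The other named genes with a called positive slope were Sdc1 (0.49), the epithelial heparan sulphate proteoglycan syndecan 1, Fat2 (0.58), an atypical cadherin, Mycl (0.50), Mgst2 (0.50), Cers3 (0.41), which makes ceramides with very long acyl chains, Wnt4 (0.39) and Id1 (0.38). Sdc1 was called in 8 of 9 settings, Mgst2 in 7, Fat2, Wnt4 and Id1 in 6, Mycl in 3 and Cers3 in 2 of 8. Without GMO+R replicate 1 and GMO replicate 2 the calls of Fat2, Mycl, Wnt4 and Id1 were lost. Called with a negative slope were Slc7a7 (-0.92), the basolateral carrier of cationic amino acids in the proximal tubule, Stra6 (-0.83) and Lgmn (-0.35). None of these 3 genes stayed called without those arrays either, where 15 clusters had a called positive slope and 0 a called negative one. Over the 9 settings of the slope fit, Upk1b, Upk2, Sprr1a, Anxa8, Krt19, Uchl1 and cluster 17747907 were called in each.

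The 12 arrays between were ranked with the others and lay in neither set, and their score was made of the same 3 genes. Within them 0 clusters were called by limma in either direction, with 2740 at an unadjusted p under 0.05 and a smallest adjusted p of 0.531, over a score range of 5.73 to 6.22. The slope kept its sign there for all 5 clusters called between the sets. It did so too for 18 of the 21 clusters called in the 26 arrays. That fit held these same 12 arrays, so the 18 are no separate check. Of all clusters tested 47% had a positive slope there. Sprr1a had a slope of 2.81 (SE 0.862), Upk1b of 1.36 (SE 0.525) and Upk2 of 0.74 (SE 0.342). Krt19 had a slope of 0.16 (SE 0.418), Grhl3 of 0.077 (SE 0.535) and Tp63 of -0.17 (SE 0.337), each smaller than its error. Of the urothelium list 13 of 21 slopes were positive.

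Of 16 epithelial junction genes measured, 13 had the higher mean in the rich arrays, with a median difference of 0.086 and 0 called. Lamb3, a laminin chain of epithelial basement membranes, differed by 1.06 (limma, adjusted p = 0.998), with rich arrays from 5.65 to 8.26 and poor arrays from 4.67 to 6.40. Cldn4 and Cldn7, tight junction proteins that the collecting duct shares, differed by 0.32 and 0.23. In the arrays between, 6 of the 16 slopes were positive.

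Of the tissue beneath the urothelium, smooth muscle genes had a median difference of 0.042, with 10 of 14 higher and 0 called. Actg2, the gamma actin of visceral muscle, differed by 0.56 and Myh11, the smooth muscle myosin heavy chain, by 0.26 (limma, adjusted p = 0.998 for both). In the arrays between, 4 of the 14 smooth muscle slopes were positive, with a median of -0.165. Of 15 connective tissue genes 9 were higher (median 0.064), and the collagens Col1a1, Col1a2 and Col3a1 differed by 0.11, 0.14 and 0.057. Of the 15 connective tissue slopes on the score, 5 were positive in the 26 arrays (median -0.025) and 3 in the arrays between (median -0.73). Lum, the small proteoglycan lumican, stood out from its list. It ran from 5.11 to 7.05 in the rich arrays (median 6.07) and from 3.75 to 5.29 in the poor arrays (median 4.37), with GMO+R replicate 5 the lowest rich array and control replicate 1 the highest poor one. Its difference of 1.54 (SE 0.279) did not pass (limma, adjusted p = 0.189). The 8 Schwann cell genes had a median difference of 0.19, led by the myelin gene Mbp (0.25), and 3 of their slopes were positive in the arrays between.

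Adipocyte genes had the median difference nearest to that of the urothelium list, 0.33 (13 of 15 higher, 0 called, 5 at an unadjusted p under 0.05). Adipoq, the fat hormone adiponectin, ran from 7.43 to 8.61 in the rich arrays (median 7.56) and from 6.95 to 7.79 in the poor arrays (median 7.17), a difference of 0.46 (limma, adjusted p = 0.998). Thrsp, a lipogenic protein, ran from 5.55 to 10.1 against 5.07 to 6.36, with GMO+R replicate 9 at the top, and differed by 1.66 (limma, adjusted p = 0.988). The sets overlapped for both genes. The mean level of the list was 7.70 in GMO+R replicate 9 and 6.18 in GMO+R replicate 1, the highest and the lowest rich array. The median difference was 0.24 without GMO+R replicate 9 and 0.44 without GMO+R replicate 1.

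Liver genes were measured because control replicate 10 held them. Of 9 measured, 8 had the higher mean in the rich arrays (median 0.20, 0 called), and the mean level ran from 5.68 to 6.82 in the rich arrays and from 5.63 to 5.98 in the poor arrays. Alb, the plasma protein albumin, stood at 11.1 in GMO+R replicate 5 and 11.0 in control replicate 9, and at most at 8.84 in a poor array. Cps1, an enzyme of the urea cycle, differed by 1.04 (limma, adjusted p = 0.998). It did not run with Alb in every array, at 7.61 in control replicate 9 but 6.44 in GMO+R replicate 5. The highest Cps1 of the rich arrays was 8.37 in control replicate 5, where Alb stood at 7.19. Whether liver RNA or fat had a part in the differences of the other lists was not tested.

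Of the lists grouped under the medulla, those of principal cells, thick limb and osmotic response held mostly higher means in the rich arrays. The list of intercalated cells held mostly lower means, and 0 members of these lists were called. Their genes were not measured by zone, so medullary and cortical parts of these segments cannot be told apart. Of 13 principal cell genes of the collecting duct 9 had the higher mean in the rich arrays, with a median of 0.21, or 0.11 without GMO+R replicate 5. Fxyd4, a regulator of the sodium pump in the collecting duct, ran from 8.73 to 10.3 against 8.22 to 9.42, a difference of 0.62, and Slc14a2, the urea transporter of the inner medulla, differed by 0.59 (limma, adjusted p = 0.998 for both). Aqp3 differed by 0.27 and the water channel Aqp2 by 0.051. Hsd11b2, which protects the mineralocorticoid receptor from glucocorticoids, had the opposite sign (-0.36). In the 12 arrays between, 12 of the 13 slopes were positive, with a median of 0.57. Without GMO+R replicate 4 and GMO replicate 2, at the ends of that score range, 12 were still positive, with a median of 0.41.

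Intercalated cell genes, which encode acid and base transport in the collecting duct, had lower means for 12 of 13 members in the rich arrays (median -0.15). The anion exchangers Slc26a4 and Slc4a1 differed by -0.38 and -0.26 (limma, adjusted p = 0.998 for both). Without GMO+R replicate 1, Slc26a4 differed by -0.24. In the arrays between, 9 of 13 slopes were positive (median 0.12), and 12 of 13 (median 0.44) without GMO+R replicate 4 and GMO replicate 2. Of the 11 thick limb genes 10 were higher, with a median difference of 0.023, and Umod and Slc12a1 differed by 0.023 and 0.014. Of 8 genes of the response to osmotic stress 7 were higher, with a median of 0.15, or 0.079 without GMO+R replicate 5 and 0.25 without GMO+R replicate 1. Akr1b1, the aldose reductase that makes sorbitol, differed by 0.66, and by 1.02 without GMO+R replicate 1 (limma, adjusted p = 0.998 and 0.997). Gpx3, a secreted peroxidase made mainly in the proximal tubule, was the exception at -0.57 (limma, adjusted p = 0.759).

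**Figure D4:**
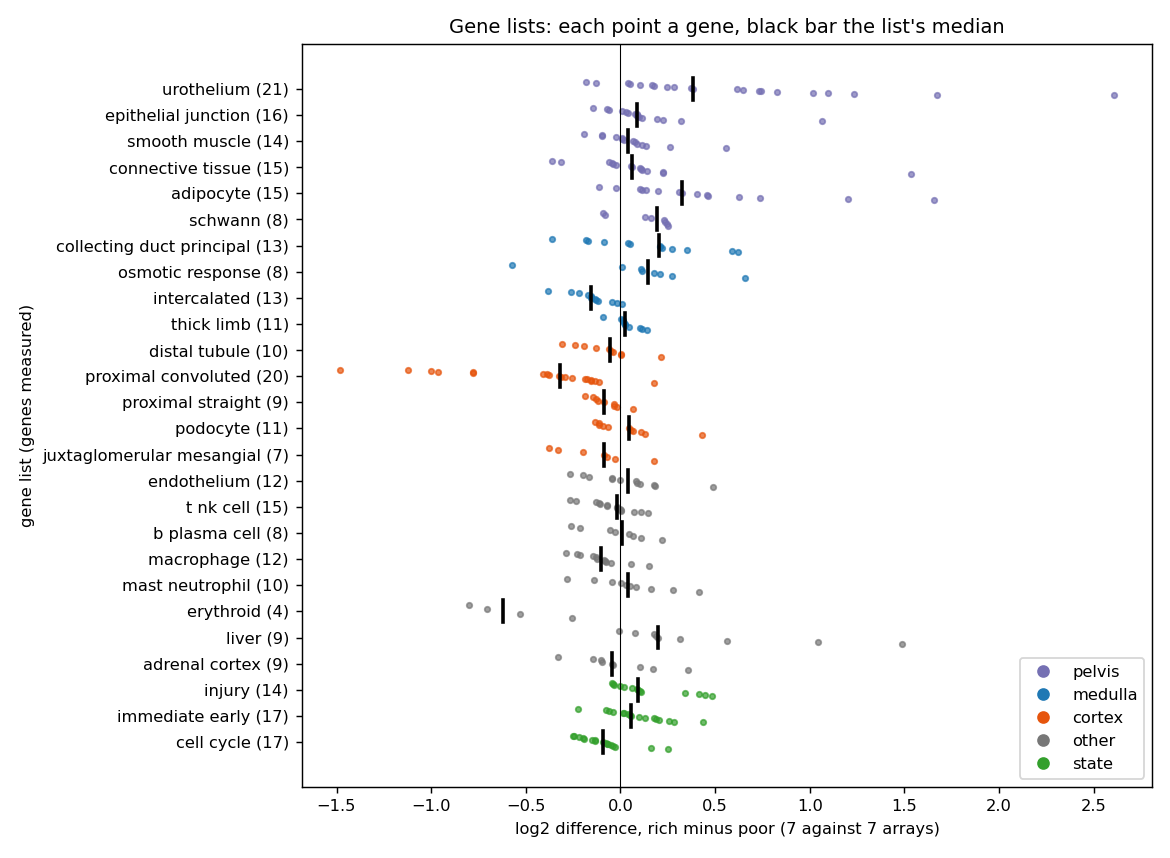
Difference in log2 value between the means of the 7 rich and the 7 poor arrays for each measured gene (points, coloured by zone) of the 26 lists, with the number of genes measured and the list's median as a black bar. The medians of the urothelium (0.38) and adipocyte (0.33) lists lay farthest to the right, and those of the proximal convoluted (-0.32) and erythroid (-0.62) lists farthest to the left.

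In the cortex, genes of the proximal convoluted tubule had the lower mean in the rich arrays for 19 of 20 members, with a median difference of -0.32. None was called, 13 were lower at an unadjusted p under 0.05 and 0 higher, against 745 lower of all 36682 clusters. The largest differences belonged to apical and basolateral carriers of the early segment. Slc5a12, which takes up lactate with sodium, ran from 5.32 to 10.2 in the rich arrays (median 9.31) and from 9.64 to 10.5 in the poor arrays (median 10.2), a difference of -1.48 (SE 0.571, limma adjusted p = 0.998). Slc7a7 ran from 5.75 to 7.85 (median 7.66) against 7.85 to 8.98 (median 8.35), and the sets just met. It differed by -1.12 (SE 0.291, limma adjusted p = 0.683). Slc5a2, the glucose carrier SGLT2, Slc34a3, a phosphate carrier, the bicarbonate carrier Slc4a4 and the neutral amino acid carrier Slc6a19 differed by -1.0, -0.97, -0.78 and -0.78. Slc34a1, the main phosphate carrier, and Lrp2, the endocytic receptor megalin, differed by only -0.19 and -0.11, and Slc17a3 by 0.18.

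Part of this size came from a single array. GMO+R replicate 1 was the lowest of the 14 arrays for Slc5a12 (5.32), Slc7a7 (5.75) and Slc4a4 (8.99), and its mean over the list was 9.17, against 9.74 to 10.4 in the other 6 rich arrays and 10.3 to 10.7 in the poor arrays. Without it 19 of 20 members were still lower, with a median of -0.27 and 9 at an unadjusted p under 0.05. Slc5a12 then differed by -0.92, Slc7a7 by -0.86 and Slc4a4 by -0.48 (limma, adjusted p = 0.915, 0.569 and 0.709), and Slc5a2, Slc34a3 and Slc6a19 by -0.59, -0.57 and -0.47 (limma, adjusted p = 0.929, 0.994 and 0.997). In the 12 arrays between, by contrast, 17 of the 20 slopes on the score were positive, with a median of 0.73. Without GMO+R replicate 4 and GMO replicate 2 the median was 0.61, again with 17 positive.

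The straight segment of the proximal tubule did not share the size of these differences. Of 9 genes 8 were lower in the rich arrays, with a median of -0.086, a range of -0.19 to 0.068 and 0 at an unadjusted p under 0.05. Without control replicate 3 the median was -0.010. GMO+R replicate 1, low for the convoluted segment, had a mean level of 10.2 here, within the 9.72 to 10.3 of the other rich arrays. In the arrays between, all 9 slopes were positive. A test of the difference between the segments was not made.

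Podocyte genes had a median difference of 0.046, with 6 of 11 higher, and distal tubule genes one of -0.054, with 7 of 10 lower. GMO+R replicate 1 was low for both, at 6.86 for the podocyte list against 7.56 to 7.83 in the other rich arrays and at 7.57 for the distal list against 8.55 to 8.90. Without it 10 of 11 podocyte genes were higher (median 0.14) and 7 of 10 distal genes were higher (median 0.059), so that the sign of the distal median turned. Slc12a3, the thiazide-sensitive carrier, differed by -0.060 with this array and by 0.14 without it. The 7 juxtaglomerular and mesangial genes had a median of -0.085, and 0.013 without that array. The plot of list levels against the score shows GMO+R replicate 1 away from the other arrays in the convoluted and podocyte panels.

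**Figure D5:**
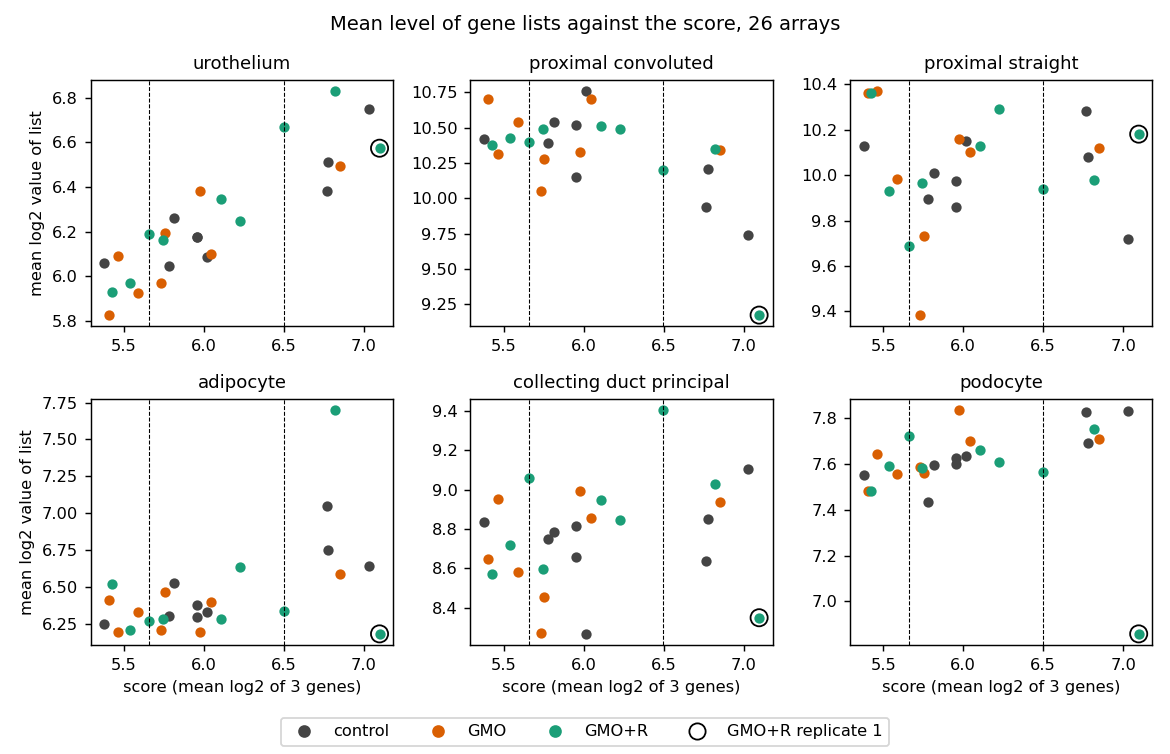
Mean log2 level of 6 gene lists (vertical axes) against the score (horizontal axes) in the 26 ranked arrays, coloured by diet, with the borders of the rich and poor sets dashed and GMO+R replicate 1 circled. The urothelium level was between 6.38 and 6.83 in the rich arrays and between 5.83 and 6.19 in the poor arrays, and the circled array was the lowest for the convoluted tubule (9.17) and podocytes (6.86).

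Genes of blood, immune and injury states showed no called member. The 4 erythroid genes were all lower in the rich arrays (median -0.62), with the globin gene Hbb-b1 at 7.64 to 9.23 against 8.43 to 11.0 (limma, adjusted p = 0.998). Leaving out each array gave erythroid medians from -0.80 (without GMO+R replicate 7) to -0.43 (without GMO replicate 5). In the arrays between, by contrast, all 4 erythroid slopes were positive, with a median of 0.91. Of 12 macrophage genes 10 were lower (median -0.10), and in the arrays between 11 of the 12 slopes were negative, with a median of -1.31. Slopes there were also negative for 13 of 14 injury genes (median -1.3), 15 of 17 immediate early genes (-0.68) and 14 of 17 cell cycle genes (-0.78). So were those of 13 of 15 T and natural killer cell genes and 7 of 8 B and plasma cell genes. Between the sets, T and natural killer cell genes had a median difference of -0.021, B and plasma cell genes of 0.0066, and mast cell and neutrophil genes of 0.041. Endothelial genes had a median of 0.040 with 6 of 12 higher, and of 0.13 with 11 of 12 higher without GMO+R replicate 1. The largest difference of the list was that of Slc14a1, a urea transporter found in the descending vasa recta, at 0.49 (limma, adjusted p = 0.767). Injury genes had a median of 0.091, immediate early genes of 0.057, cell cycle genes of -0.093 and adrenal cortex genes of -0.047. Leaving out each array gave medians from 0.014 (without GMO replicate 5) to 0.23 (without GMO replicate 6) for injury genes, from -0.18 (without GMO+R replicate 7) to -0.013 (without GMO replicate 6) for macrophages and from 0.016 (without GMO+R replicate 7) to 0.10 (without GMO replicate 6) for smooth muscle. Without GMO replicate 6 the medians of the mast cell and neutrophil list and of the liver list were 0.13 and 0.31, and without GMO+R replicate 8 that of the cell cycle list was -0.038. The thick limb median ran from 0.00064 (without GMO+R replicate 7) to 0.075 (without GMO+R replicate 9). Leaving out 1 array turned the sign of several medians near 0. Those of the T and natural killer cell and adrenal cortex lists became 0.029 and 0.077 without GMO replicate 6, and that of B and plasma cells -0.033 without GMO+R replicate 8. Those of the endothelial and connective tissue lists became -0.039 and -0.055 without GMO+R replicate 7, that of podocytes -0.024 without control replicate 5 and that of immediate early genes -0.0079 without GMO replicate 5.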

How the data were processed

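The authors deposited log2 values made with Affymetrix Expression Console and the RMA algorithm, that is, background correction, quantile normalization and 1 summary value per transcript cluster. Software versions and the array's genome build were not given in the sources used here. The lowest value was 1.30, the highest 14.0, and the medians of the arrays lay within 5.43 to 5.63. Arrays carry no read depth, and their number limits the precision. Of 36685 clusters 18511 had a single gene symbol, 575 several and 17599 none. Of the single-symbol clusters 18394 matched RefSeq GRCr8. Per gene the cluster of highest mean was used.

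The sets, scoring genes and lists were chosen with earlier results of these data known. R 4.3.3 and limma 3.58.1 (lmFit, eBayes, two-sided, no covariates) gave the difference between the sets and the slopes, checked on simulated data, with Benjamini-Hochberg adjustment over all clusters except the scoring genes' own. The 26 lists held 359 entries, of which 318 were measured and the rest not analysed here, and were described by counts and medians without a set test. Named were the scoring genes, all measured urothelial genes, the 4 members of smallest p in each other list, called genes and defining markers. Other genes were named after their values were seen, among them the non-overlapping genes, slope calls and further list members. Each array is a different animal. Alternatives were diet or age at death as covariate, array weights, centring, a filter at a mean of 5, the size of the sets, the scoring genes, the arrays ranked, a plain t-test, the replicate block and leaving out each array. Leaving out GMO replicate 2 and GMO+R replicate 1 in the slope fit, and GMO+R replicate 1 in the list medians, was added after seeing the data.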

Additional observations from a re-analysis of the deposited data

Results flagged for a closer look

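In 185 sets of values searched, 18 had a highest or lowest value apart from the rest by Dixon's criterion. Chance gives this in about 1 set in 20. Of these, 11 belonged to GMO+R replicate 1 among the rich arrays. It was low for the mean levels of the Schwann cell (6.66), distal tubule (7.57), podocyte (6.86), juxtaglomerular and mesangial (7.06) and endothelial (7.43) lists and for Mgst2 (5.37), Slc7a7 (5.75), Stra6 (5.69), Slc4a4 (8.99) and Slc12a3 (10.2), and high for mast cell and neutrophil genes (4.79). Its nearest neighbours stood at 6.85, 8.55, 7.56, 7.59 and 7.99 for the 5 lists where it was low.

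Control replicate 3 was high for Pla2r1 in the rich arrays (5.70, next 5.39). In the poor arrays GMO+R replicate 7 was low for the endothelial list (7.74, next 8.08), GMO replicate 6 high for B and plasma cell genes (5.99, next 5.44), GMO replicate 1 low for Anxa8 (5.07, next 5.59) and Actg2 (4.26, next 5.12), and control replicate 1 high for Cps1 (7.84, next 6.07). In the GMO diet, replicate 8 had a score of 6.85, with the next GMO animal at 6.04. Whether the slope on the score differed between the control diet and the NK603 diets was also tested with limma, and 0 clusters were called, with 1321 at an unadjusted p under 0.05.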

How the results depend on the processing

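The clusters called higher in the rich arrays numbered 5, and 2 with diet as a covariate, 2 without limma's moderation (plain t-test) and 3 without GMO replicate 2 and GMO+R replicate 1. They numbered 4 to 7 under the other settings and 4 to 5 when each array was left out. Clusters called lower numbered 0, and 0 to 1 when an array was left out, with 1, lacking a single gene symbol, without control replicate 3, GMO+R replicate 9 or GMO+R replicate 7. The slope in 26 arrays called 18 positive and 3 negative clusters. These numbers were 11 and 0 with diet as a covariate, 15 and 0 with age at death, 18 and 0 with array weights, 27 and 8 among clusters of a mean of at least 5, 24 and 5 with all 28 arrays and 15 and 0 without GMO replicate 2 and GMO+R replicate 1. In the arrays between, 0 clusters were called under each setting run. The age difference ran from 43.7 to 85 days over the settings (exact permutation p = 0.158 to 0.446).

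The replicate number as a block (replicate block) gave 7 positive and 0 negative clusters. Deviations of animals of the same number in different diets had a median correlation of -0.00824 over 25 pairs (-0.156 to 0.171), against 0.000527 over 200 pairs of different numbers, so the numbers gave no pairing.

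The named genes whose sign turned had differences of at most 0.11, except Krt14 with 0.28. Between the sets Slc12a3 was 0.10 with array weights, 0.030 with the score without Upk1a, 0.13 without GMO replicate 2 and GMO+R replicate 1, 0.14 without GMO+R replicate 1 and 0.026 without GMO+R replicate 8 (-0.12 to 0.14 leaving out each array). Umod was -0.0066 after centring, -0.0085 without GMO+R replicate 5 and -0.0040 without GMO+R replicate 7 (up to 0.075 leaving out each array). Without Upk1a in the score Elf3 was -0.027 and Krt17 -0.0076, and Krt17 was -0.060, -0.089 and -0.019 without control replicate 9, GMO+R replicate 8 and GMO replicate 1 (up to 0.17). Krt14 was -0.0098 with all 28 arrays ranked, Krt13 -0.0055 without GMO+R replicate 1 (up to 0.12) and Aqp2 -0.034 without GMO+R replicate 5 (up to 0.12). The urothelium median was 0.65 among clusters of a mean of at least 5, and the liver median 0.84 with all 28 arrays ranked. As slopes, Slc12a3 was 0.062 with array weights and 0.11 without GMO replicate 2 and GMO+R replicate 1, where Krt13 was -0.043, Umod -0.0065 after centring and Aqp2 -0.061 with the replicate block. The cause was not tested.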
